A study of Homo sapiens with 6 samples.

Results

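The spliceosomal small nuclear RNAs (snRNAs) were examined together with PHAX, the adaptor that carries newly made snRNAs to the export receptor CRM1. The samples were DLD-1 cells in which CRM1 had been blocked, and auxin was then used to degrade the nuclear basket protein TPR. The members were the 9 genes of a fixed list, RNU4-1, RNU4-2, RNU5A-1, RNU5B-1, RNU11, RNU12, RNU4ATAC, RNU6ATAC and PHAX. All 9 were found among the 58051 genes of the count table and all 9 passed the filter on low counts. DLD-1 is a human colorectal adenocarcinoma line. In the line used here both copies of TPR carried an auxin-inducible degron (AID) and NeonGreen, and the auxin receptor TIR1 was expressed from the RCC1 locus, so the controls carry these alleles too, and the number of clones behind the cultures was not given. The 3 control cultures, called LMB, were kept for 3 h in 200 nM Leptomycin B, a covalent inhibitor of CRM1. The other 3, called LMB+auxin, had the same inhibitor for 3 h and 1 mM auxin from 1 h onwards, for 2 h in all. These groups and times follow the treatment and incubation labels, while the sample titles give 2 h and the protocol text states auxin for all degron lines, so the labels conflict on whether the controls were free of auxin. Total RNA was sequenced without separating nucleus from cytoplasm, so abundance was measured and location was not. Auxin removes TPR protein rather than its mRNA, so TPR counts do not check the depletion, and TPR protein was not analysed here. No culture without Leptomycin B was analysed here. In such bulk samples fewer cells and less RNA per cell cannot be told apart. Every culture carried the degron, so an effect of auxin itself cannot be told apart from loss of TPR. By the treatment labels, the comparison asks whether auxin in this degron line alters snRNA abundance when their export receptor is already blocked.

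Most spliceosomal snRNAs are made by RNA polymerase II, receive a cap and are bound by the cap-binding complex and PHAX, which joins them to CRM1 for export. In the cytoplasm the SMN complex loads a ring of Sm proteins onto the RNA, the cap is hypermethylated and the particle returns to the nucleus. U6 and U6atac are made by RNA polymerase III, do not use PHAX and CRM1 in this way and receive LSm proteins instead. U4 and U5 belong to the major spliceosome, U11, U12, U4atac and U6atac to the minor spliceosome, and U5 serves both.

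Total counts ran from 28261903 to 35992425 per library. Of 9 epithelial markers, 8 were above 1 CPM (counts scaled to a common library total) on average, led by KRT8, and CDX1 was at 0.00 to 0.03 CPM. Summed epithelial markers ran from 7687 to 7753 CPM in LMB and from 7533 to 8140 CPM in LMB+auxin. All 4 fibroblast markers lay below 1 CPM, with a sum of 0.574 to 1.14 CPM. Of the other markers, 1 of 3 endothelial, 1 of 3 leukocyte and 1 of 2 muscle genes exceeded 1 CPM, and PTPRC and DES stayed below 0.07 CPM. Replicates are described by the study as independent biological replicates.

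The sequences of 6 of the 8 snRNA genes were read from the GRCh38 assembly at their GENCODE 44 positions, each a single noncoding exon, and are shown 5′ to 3′ as DNA letters. They show how far the paralogous copies can be told apart and which RNAs carry letters of the kind that the Sm ring binds. RNU4-1 (ENSG00000200795) lies at chr12:120293097-120293237 and RNU4-2 (ENSG00000202538) beside it at chr12:120291763-120291903, both on the minus strand. RNU11 (ENSG00000274978) is at chr1:28648600-28648733 and RNU12 (ENSG00000276027) at chr22:42615244-42615393, both on the plus strand. RNU4ATAC (ENSG00000264229, chr2:121530881-121531007, plus strand) sits in an intron of CLASP1 on the opposite strand and in an intron of CLASP1-AS1 on its own. RNU6ATAC (ENSG00000221676) is at chr9:134164439-134164564 on the minus strand. Capitals mark the Sm-type letters, ATTTTTG or ATTTTTTG, in the 5 polymerase II transcripts and the closing run of T in RNU6ATAC.
RNU4-1: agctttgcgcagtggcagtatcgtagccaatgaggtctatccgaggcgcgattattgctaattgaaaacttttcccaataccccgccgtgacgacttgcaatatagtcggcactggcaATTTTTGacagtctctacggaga
RNU4-2: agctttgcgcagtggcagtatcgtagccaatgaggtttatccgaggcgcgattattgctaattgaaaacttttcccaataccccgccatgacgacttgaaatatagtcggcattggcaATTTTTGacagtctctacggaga
RNU11: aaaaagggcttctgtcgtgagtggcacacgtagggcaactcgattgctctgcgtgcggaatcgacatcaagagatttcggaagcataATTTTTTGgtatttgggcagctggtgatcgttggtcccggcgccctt
RNU12: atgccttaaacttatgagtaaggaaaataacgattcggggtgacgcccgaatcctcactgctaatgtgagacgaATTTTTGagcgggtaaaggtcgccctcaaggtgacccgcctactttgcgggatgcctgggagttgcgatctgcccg
RNU4ATAC: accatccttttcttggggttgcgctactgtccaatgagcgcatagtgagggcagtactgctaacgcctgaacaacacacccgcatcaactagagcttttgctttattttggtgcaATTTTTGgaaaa
RNU6ATAC: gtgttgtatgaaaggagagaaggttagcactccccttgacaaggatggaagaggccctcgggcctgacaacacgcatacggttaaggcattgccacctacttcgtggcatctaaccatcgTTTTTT

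Each of these 5 polymerase II genes held 1 match to these letters on the transcribed strand, and RNU6ATAC held 0. Among 1901 snRNA genes and pseudogenes of GENCODE 44, 7.4% held a match. RNU4-1 and RNU4-2 were identical at 137 of 141 positions (97.2%), and counted from 1 at the 5′ end of RNU4-1 they differed by C37T, G88A, C99A and C113T. Their longest identical stretch was 50 bases. The U4 copy of the minor spliceosome was far from both, with RNU4ATAC identical to RNU4-1 at 51.0% of aligned columns and to RNU4-2 at 53.3%. Each of the 6 full sequences occurred 1 time in the assembled chromosomes. Reads from a shared stretch of the U4 copies cannot be assigned with certainty, the same may hold for the U5 paralogs, and how multiply mapped reads were handled is unknown here.

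Pseudogenes took part of the counts in some families. The table held 162 further genes named as copies of the 8 snRNAs, of which 90 had a count. The copies held 22.5% of the counts of the U5A family (library range 19.1% to 23.6%) and 26.9% of the small total of the U6atac family (11.8% to 45.2%). In the U4 family, with 88 copies, the share was 3.90%. It was 0.781% for U4atac and below that for U5B, U11 and U12. The copies with the highest mean counts were RNU5A-8P (570.3), RNU4-5P (221) and RNU4-25P (18.7).

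No snRNA gene and not PHAX was called different between LMB+auxin and LMB. The quasi-likelihood test of edgeR, with a call at a Benjamini-Hochberg adjusted p under 0.05 over all 16974 tested genes and a fold change of at least 1.3, called 0 of the 9 members, where 0.00589% of all tested genes were called. No member had an unadjusted p under 0.05, against 4.37% of all tested genes, and the adjusted p ran from 0.954 to 0.997. DESeq2 called 0 members as well, and 11 of all tested genes. Log2 fold changes ran from -0.12 for RNU12 to 0.25 for RNU6ATAC, with 7 above 0 and 2 below, and their median of 0.02 lay beside -0.00 over all tested genes. Each of the 9 estimates changed sign under at least 1 alternative, which included the omission of 1 library. For RNU4-1, RNU4-2, RNU5A-1, RNU12 and RNU6ATAC this happened only when 1 library was omitted from the fit without the replicate block. The ranges of the 2 groups overlapped for all 9 genes. The share of such genes among all tested genes was not determined, so this count is a description.

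**Figure D1:**
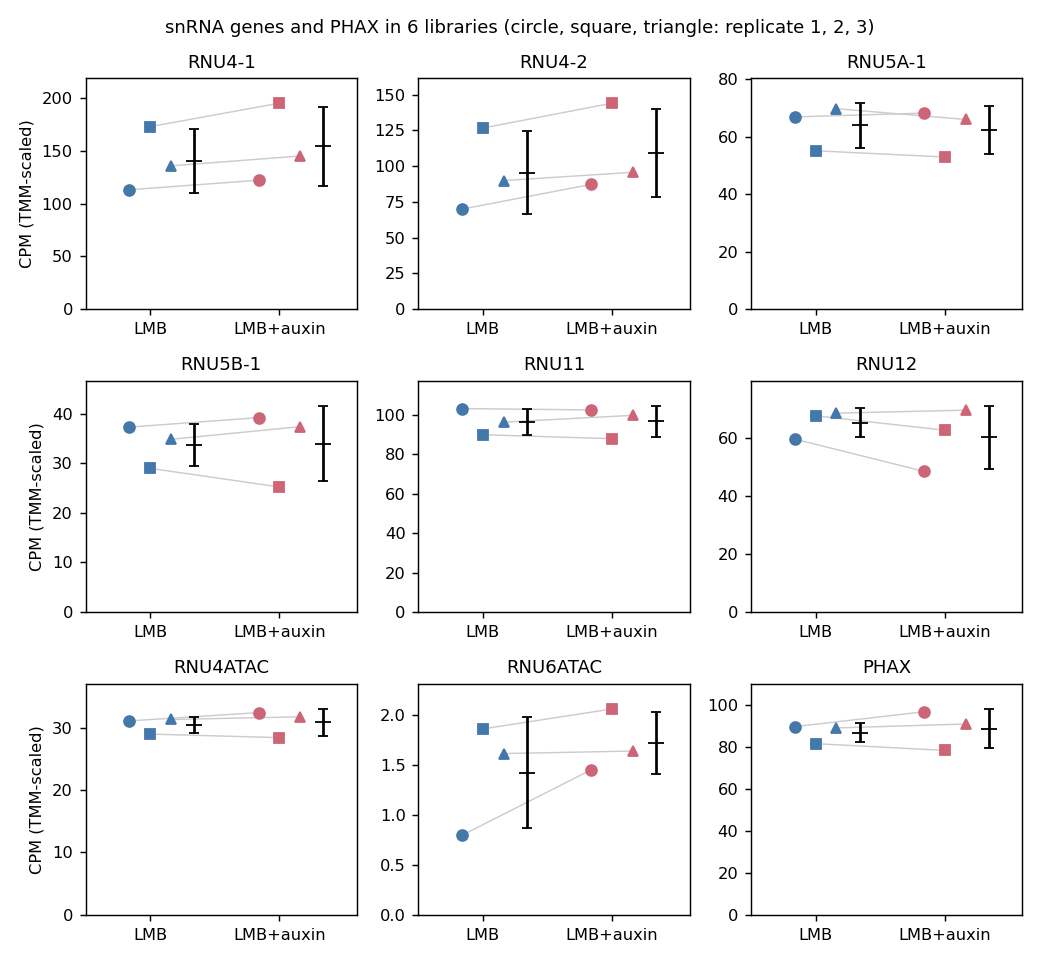
TMM-scaled CPM (y axis, from 0) of each of the 9 genes in the LMB (blue) and LMB+auxin (red) libraries, with circle, square and triangle for replicates 1, 2 and 3, grey lines joining equal replicate numbers, and black bars for the mean ± SD (n = 3). The groups overlap in every panel, and the square lies highest in both groups for RNU4-1, RNU4-2 and RNU6ATAC and lowest in both for RNU5A-1, RNU5B-1, RNU11, RNU4ATAC and PHAX.

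Replicate numbers marked libraries that deviated together. The deviations of the same-numbered libraries from their group means correlated at 0.531, 0.691 and 0.273 across genes for replicates 1, 2 and 3. Those of differently numbered libraries correlated at -0.573 to 0.146, and replicate 3 stood less far apart. The deviations of a gene cancel out within a group, so higher values for same numbers lower those for different numbers, and the 2 sets are not independent. A fit with the replicate number as a block is given beside the fit without it. With the block edgeR again called 0 of 9 members, against 1.18% of all tested genes. By the adjusted p alone, without the fold threshold, 4.36% of all genes passed and 1 of 9 members did, RNU4-2. At an unadjusted p under 0.05 there were 3 members with the block, RNU4-1, RNU4-2 and RNU12, where 19.9% of all tested genes had such a p.

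**Figure D2:**
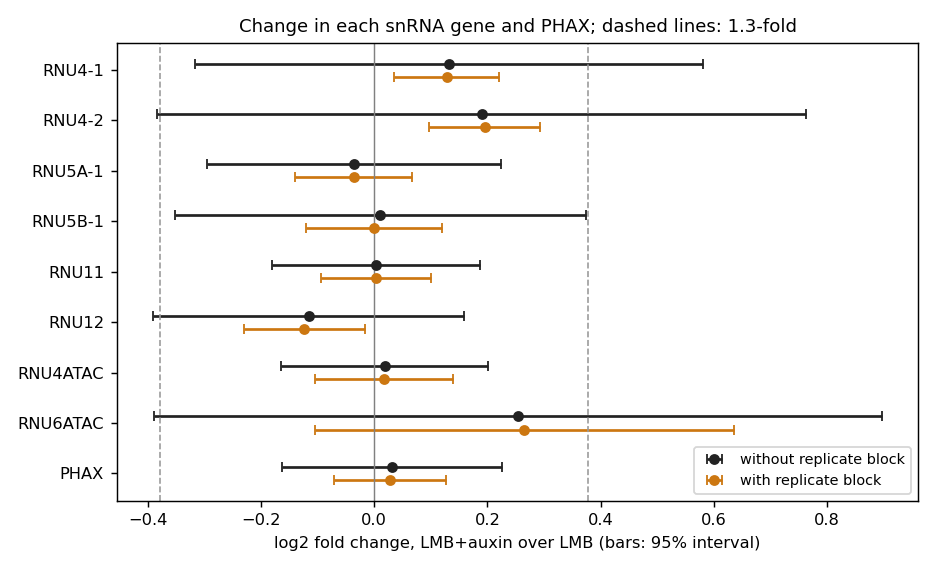
Log2 fold change of LMB+auxin over LMB (x axis) for each gene (rows), with 95% intervals from edgeR without (black) and with (orange) the replicate block, and dashed lines at a 1.3-fold change. Every interval without the block spans 0, while with the block those of RNU4-1, RNU4-2 and RNU12 do not and all point estimates stay inside the dashed lines.

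U4, which holds the catalytic U6 RNA in an inactive duplex until the spliceosome is activated, was counted from 2 genes. RNU4-1 was at 113, 173 and 136 CPM in LMB replicates 1, 2 and 3 and at 122, 195 and 145 CPM in LMB+auxin replicates 1, 2 and 3. Replicate 2 was the highest in both groups and each LMB+auxin library lay above the LMB library of its number. The log2 fold change of RNU4-1 was 0.13 ± 0.20 (SE; edgeR adjusted p 0.960), and with the block 0.13 ± 0.05 (SE; adjusted p 0.0975). With replicate 1, 2 or 3 taken out of both groups, the adjusted p of RNU4-1 with the block was 0.0366, 0.429 and 0.471. RNU4-2 was at 69.9, 127 and 89.8 CPM in LMB and at 87.2, 144 and 95.6 CPM in LMB+auxin, in the order of replicates 1, 2 and 3. It too was higher in 3 of 3 pairs, with groups that overlapped. Its log2 fold change was 0.19 ± 0.25 (SE; edgeR adjusted p 0.957), a fold of 1.14 with a 95% interval of 0.766 to 1.70. With the block the fold change of RNU4-2 was 0.20 ± 0.05 on the log2 scale (SE; edgeR adjusted p 0.00875), a fold of 1.15 (95% interval 1.07 to 1.23), below the fold threshold. When replicate 1, 2 or 3 was taken out of both groups, the RNU4-2 adjusted p with the block was 0.0464, 0.103 and 0.114 at log2 fold changes of 0.14, 0.21 and 0.26. Without the block, omitting LMB+auxin replicate 2 turned the RNU4-2 estimate to -0.06 and that of RNU4-1 to -0.07, and omitting LMB replicate 1 left RNU4-2 at 0.01 and RNU4-1 at -0.00.

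U5, which aligns the exons during both catalytic steps, was also counted from 2 genes. RNU5A-1 was at 66.8, 55.05 and 69.7 CPM in LMB and at 68.2, 52.9 and 65.9 CPM in LMB+auxin replicates 1, 2 and 3. Its lowest value fell in replicate 2 of either group, opposite to U4. The log2 fold change was -0.03 ± 0.12 (SE; edgeR adjusted p 0.982), and the 95% interval of the fold ran from 0.815 to 1.17. RNU5A-1 sits in an intron of PARP16 on the opposite strand, and cannot be told from unspliced PARP16 RNA if strand was not used. RNU5B-1 was at 37.3, 29.0 and 34.8 CPM in LMB and at 39.2, 25.2 and 37.4 CPM in LMB+auxin. It showed the same low value in replicate 2, a log2 fold change of 0.01 ± 0.16 (SE; edgeR adjusted p 0.995). The summed U5 level was 97.6 ± 11.7 CPM without and 96.3 ± 15.9 CPM with auxin (SD, n = 3 per group), and the summed U4 level was 236 ± 59.0 and 263 ± 67.8 CPM.

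U11 and U12, which recognise the 5′ splice site and the branch point of minor introns and act as a single di-snRNP, correlated at r = -0.452 in log2 CPM over the 6 libraries, given as a description. RNU11 was at 103, 89.9 and 96.3 CPM in LMB and at 102, 87.9 and 99.8 CPM in LMB+auxin. Replicate 2 was the lowest in each group, and the log2 fold change was 0.00 ± 0.08 (SE; edgeR adjusted p 0.997, 95% interval of the fold 0.883 to 1.14). A long noncoding gene, ENSG00000270103, is annotated on 131 of the same bases, and RNU11 held at most 102% of its counts and never less than all of them, so the entries cannot be told apart. RNU12 was at 59.5, 67.5 and 68.5 CPM in LMB and at 48.4, 62.6 and 69.5 CPM in LMB+auxin. The lowest value was that of LMB+auxin replicate 1, and LMB+auxin exceeded LMB in 1 of 3 pairs. The log2 fold change of RNU12 was -0.12 ± 0.12 (SE; edgeR adjusted p 0.954), and with the block -0.12 ± 0.05 (SE; adjusted p 0.173). Without LMB+auxin replicate 1 the RNU12 estimate was 0.02. RNU12 lies within ENSG00000270022, a long noncoding gene of 664 exonic bases, and held 62.7% to 69.4% of its counts.

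U4atac and U6atac form the minor counterpart of the U4/U6 duplex, and U6atac becomes part of the catalytic core. RNU4ATAC was the steadiest member, at 31.1, 29.0 and 31.3 CPM in LMB and at 32.4, 28.4 and 31.7 CPM in LMB+auxin. Its log2 fold change was 0.02 ± 0.08 (SE; edgeR adjusted p 0.986), and the 95% interval of the fold was 0.893 to 1.15. The counts do not tell RNU4ATAC from unspliced CLASP1 RNA if strand was not used, a setting not given in the sources used here. Unspliced CLASP1-AS1 RNA, on the same strand, cannot be told apart with either setting, and that gene had 21 to 33 counts per library. RNU6ATAC had only 23, 58 and 58 counts in LMB and 43, 60 and 52 counts in LMB+auxin, or 0.797, 1.86 and 1.61 CPM and 1.45, 2.06 and 1.64 CPM. LMB replicate 1 stood below the other 5 libraries, which overlapped. The log2 fold change of RNU6ATAC was 0.25 ± 0.29 (SE; edgeR adjusted p 0.957), and it became -0.01 without LMB replicate 1. The 95% interval of its fold ran from 0.764 to 1.86, so changes past the fold threshold in either direction lie within it. The same held for RNU4-2 without the block (0.7665 to 1.698). Without the block the interval of RNU4-1 passed the threshold upwards (to 1.496) and that of RNU12 downwards (to 0.7627). For these genes the lack of a call in that fit does not exclude such changes.

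PHAX (ENSG00000164902, chr5:126600925-126627252, plus strand, protein-coding) encodes the phosphorylated adaptor that bridges the cap-binding complex and CRM1. Its mRNA was at 89.6, 81.5 and 89.0 CPM in LMB and at 96.7, 78.3 and 90.9 CPM in LMB+auxin. Replicate 2 was the lowest in each group, and LMB+auxin was higher in 2 of 3 pairs. The log2 fold change of PHAX was 0.03 ± 0.09 (SE; edgeR adjusted p 0.980), with a 95% interval of the fold from 0.893 to 1.17. With the block it was 0.03 ± 0.05 (SE; adjusted p 0.794).

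Levels were compared between genes per kilobase of exon. Mean CPM per kilobase over the 6 libraries was 1046 for RNU4-1, 725 for RNU4-2, 721 for RNU11, 544 for RNU5A-1, 418 for RNU12, 291 for RNU5B-1, 241 for RNU4ATAC, 23.9 for PHAX and 12.5 for RNU6ATAC. The following ranges pool the 6 libraries and do not compare genes within a library. RNU4-1 (803 to 1385) overlapped in range with RNU4-2 (496 to 1021), though RNU4-1 was the higher in every library. RNU4-2 in turn overlapped with both RNU11 (656 to 770) and RNU5A-1 (456 to 601), so it has no fixed place relative to RNU11 and RNU5A-1. RNU12 (323 to 463) overlapped narrowly with RNU5A-1 above it and with RNU5B-1 below it (217 to 338). RNU5B-1 also overlapped RNU4ATAC (224 to 255). Among the members, RNU6ATAC (6.33 to 16.3) was the only snRNA gene below PHAX (21.4 to 26.4), without overlap. How evenly these libraries captured RNAs as short as snRNAs was not tested.

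Ratios between members were compared within libraries, which removes the scaling between libraries. All 5 ratios were tested by a two-sided exact permutation test over the 6 libraries, whose smallest p is 0.1, so none could fall under 0.05. The log2 ratio of RNU6ATAC to RNU4ATAC averaged -4.49 ± 0.68 without and -4.17 ± 0.35 with auxin (SD, n = 3 per group; exact permutation p 0.6, adjusted 0.75). It was higher with auxin in 3 of 3 pairs, but by less than the spread in LMB, where replicate 1 lay at -5.25. RNU6ATAC to RNU12 averaged -5.59 ± 0.54 without and -5.12 ± 0.25 with auxin (SD, n = 3 per group; exact permutation p 0.2, adjusted 0.75), and was higher with auxin in 3 of 3 pairs. RNU11 to RNU12 was 0.57 ± 0.20 and 0.70 ± 0.33 (SD, n = 3 each; exact permutation p 0.6, adjusted 0.75). This ratio too was higher in 3 of 3 pairs and was highest in replicate 1 of both groups, at 0.79 and 1.08, and RNU11 counts were 1.33 to 2.12 times those of RNU12. RNU4-1 counts were 1.36 to 1.62 times those of RNU4-2 in every library (exact permutation p for the groups 0.5, adjusted 0.75), and RNU5A-1 counts 1.74 to 2.10 times those of RNU5B-1 (exact permutation p 0.8, adjusted 0.8). Within pairs of equal replicate number the exact permutation p of each of the 3 ratios that were higher in every pair was 0.25, the smallest that 3 pairs allow.

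**Figure D3:**
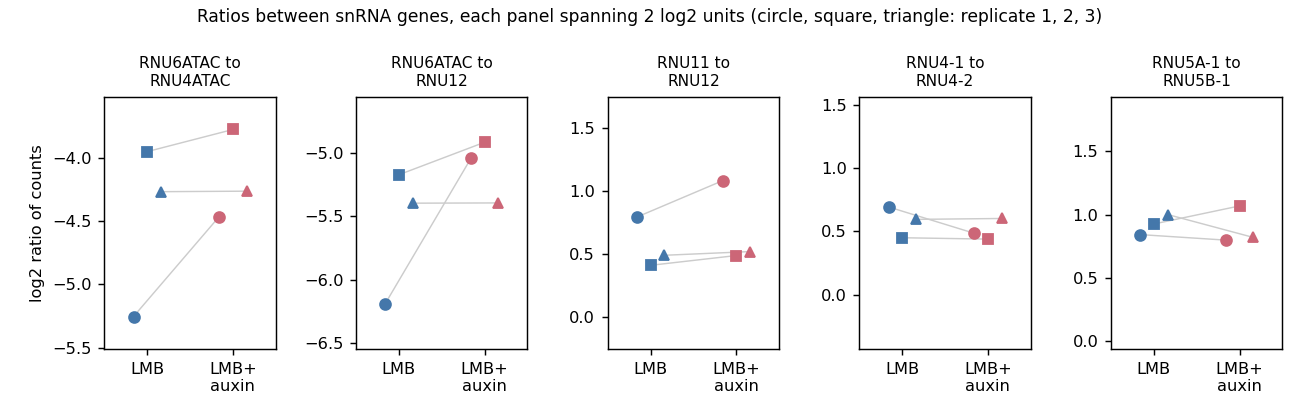
Log2 ratio of counts (y axis, 2 log2 units in each panel) for 5 pairs of snRNA genes in LMB (blue) and LMB+auxin (red) libraries, with circle, square and triangle for replicates 1, 2 and 3 and grey lines joining equal numbers. The groups overlap in each panel, and the low circle of LMB replicate 1 stands apart in both ratios of RNU6ATAC.

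The members also varied with the replicate number. A test of the replicate number in the block fit, chosen after these values were seen, passed an adjusted p of 0.05 in 8 of 9 members, beside 33.7% of all tested genes. RNU4-2 was 1.73 times and RNU4-1 1.56 times as high in replicate 2 as in replicate 1 (edgeR adjusted p 2.2e-21 and 5.5e-17). RNU5B-1 moved the other way, at 0.709 times (9.6e-08), as did RNU5A-1 at 0.799 (7.7e-06), RNU11 at 0.865 (0.0114) and PHAX at 0.858 (0.00664). RNU12 was higher in replicates 2 and 3 than in replicate 1, at 1.21 and 1.28 times (1.6e-05), and RNU6ATAC at 1.74 and 1.45 times (0.0170). RNU4ATAC did not pass (0.904 times in replicate 2, adjusted p 0.203). Across the 6 libraries the log2 CPM of RNU4-1 and RNU4-2 correlated at r = 0.984, RNU4-1 and RNU11 at -0.955, and RNU4ATAC and PHAX at 0.986. These correlations are a description over 6 libraries that share their replicate structure and total counts.

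**Figure D4:**
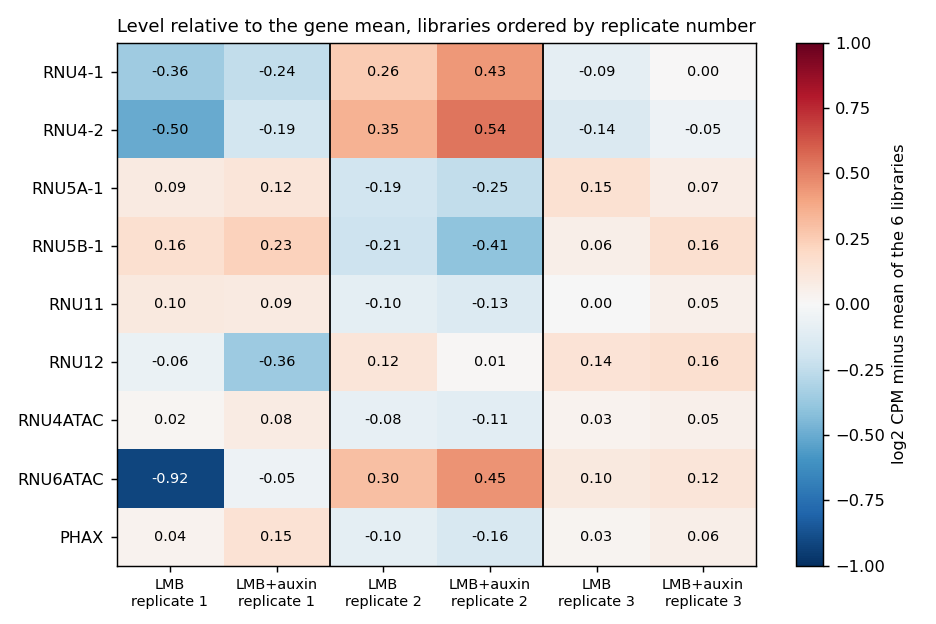
Log2 CPM of each gene (rows) minus its mean over the 6 libraries (columns, ordered by replicate number with LMB and LMB+auxin side by side), with red above and blue below the mean. The columns of equal replicate number resemble each other: replicate 2 is above the mean for both U4 genes and below it for both U5 genes, RNU11, RNU4ATAC and PHAX.

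Other short RNAs varied with the replicate number too, and their part in the member values was not tested. The summed level of the 941 snoRNA genes was 4987, 7531 and 5910 CPM in LMB and 4855, 7461 and 6039 CPM in LMB+auxin replicates 1, 2 and 3. Replicate 2 was the highest in both groups, as for U4. The 49 scaRNA genes (of small Cajal body RNAs) summed to 356, 375 and 374 CPM in LMB and 335, 392 and 342 CPM in LMB+auxin. The 1891 other snRNA genes, without 7SK, summed to 1417, 1588 and 1498 CPM in LMB and 1356, 1564 and 1536 CPM in LMB+auxin. In these sums replicate 2 was also the highest, by smaller margins. RNU2-2P, the U2 gene that GENCODE 44 spells so, was 1.54 times as high in replicate 2 as in replicate 1 (edgeR adjusted p 1.0e-18), and was named after its value was seen. The 5 tested U1 genes ranged from 0.779 to 1.04 times. The 8 snRNA members summed to 527 ± 45.1 CPM without and 549 ± 48.5 CPM with auxin (SD, n = 3 per group).

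The remaining functional snRNA genes, a list of 17, were likewise not called. Of these 12 were tested and 0 were called by edgeR in either fit. Of all tested genes, 0.00589% were called without the block and 1.18% with it. Genes with p under 0.05 before adjustment numbered 0 without the block and 4 with it, beside 4.37% and 19.9% of all tested genes. The median log2 fold change of the 12 was -0.06, with 4 above 0 and 8 below. RNU2-2P averaged 549.9 ± 140.0 CPM without and 591 ± 118 CPM with auxin (SD, n = 3 per group), a log2 fold change of 0.10 ± 0.19 (SE; edgeR adjusted p 0.967). The smallest p belonged to RNVU1-18, a variant U1 gene, at 2.99 ± 0.342 and 2.36 ± 0.348 CPM (SD, n = 3 each), with a log2 fold change of -0.34 and an edgeR adjusted p of 0.954. RNU2-1 was listed at 0 in every library, and RNU1-3, RNU6-1, RNU6-7 and RNU6-9 were under the filter. U1, U2 and U6 genes are repeated in near-identical copies and their counts are uncertain.

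The proteins that export, load and use the snRNAs were followed as 10 lists of 106 genes, of which 105 were tested. EdgeR called 0 of them without the block and 0 with it, and DESeq2 made 0 calls. Of all tested genes, edgeR called 0.00589% without the block and 1.18% with it, and DESeq2 called 11. Among the listed genes p was under 0.05 before adjustment for 2 without the block and 22 with it. The 22 genes with the block stand beside 19.9% of all tested genes and the 2 without it beside 4.37%. The median log2 fold change of the 105 was 0.04, with 65 above 0 and 40 below. For the export complex (10 genes, PHAX among them) the median was 0.03. XPO1, which encodes CRM1, averaged 947 ± 60.0 CPM without and 957 ± 109.5 CPM with auxin (SD, n = 3 per group), a log2 fold change of 0.02 ± 0.09 (SE; edgeR adjusted p 0.991). NCBP1 and NCBP2, the subunits of the cap-binding complex, were at 0.10 (adjusted p 0.954) and 0.00 (0.997), and RAN, the GTPase that loads CRM1, at 0.04 (0.973). SNUPN, the import adaptor that reads the hypermethylated cap, was at 0.04 (0.974), and IPO8 had the smallest p of the reimport list at 0.11 (0.954).

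The assembly lists gave no call either. The median was 0.07 for the SMN complex and methylosome (13 genes, SMN2 with the smallest p at 0.23), -0.00 for the Sm proteins (7 tested, SNRPG at 0.12), 0.01 for Integrator (14 genes, INTS13 at 0.11) and 0.06 for snRNA promoter factors (11 genes). SMN1 and SMN2 are near-identical and their counts are uncertain. SNAPC2, a subunit of the complex that binds snRNA promoters, averaged 16.5 ± 0.648 CPM without and 14.2 ± 1.20 CPM with auxin (SD, n = 3 per group), a log2 fold change of -0.21 with an edgeR adjusted p of 0.954 and, with the block, 0.0776. The minor spliceosome proteins (14 genes) had a median of -0.03 with ARMC7 at -0.15, the U4/U6 and U5 proteins (16 genes) 0.03 with CD2BP2 at -0.12, and the Cajal body list (4 genes) 0.03 with COIL, the scaffold coilin, at -0.14.

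The largest change among these proteins was in the list of U6 and LSm factors (12 genes, median 0.04). MEPCE, the enzyme that caps 7SK RNA, was at 40.7, 41.1 and 37.1 CPM in LMB and at 31.0, 33.5 and 31.7 CPM in LMB+auxin. The groups did not overlap, and the log2 fold change of MEPCE was -0.30 ± 0.08 (SE; edgeR adjusted p 0.954). With the block the adjusted p was 2.6e-04 at -0.30, below the fold threshold. TUT1, the terminal uridylyltransferase of U6, averaged 23.5 ± 3.25 CPM without and 20.1 ± 2.68 CPM with auxin (SD, n = 3 per group), lower in 3 of 3 pairs, with a log2 fold change of -0.23 and edgeR adjusted p values of 0.954 without and 0.0288 with the block. TUT1 was named after its value was seen. These were the 2 listed genes of 117 tested that passed the adjusted p with the block, which 4.36% of all tested genes passed.

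**Figure D5:**
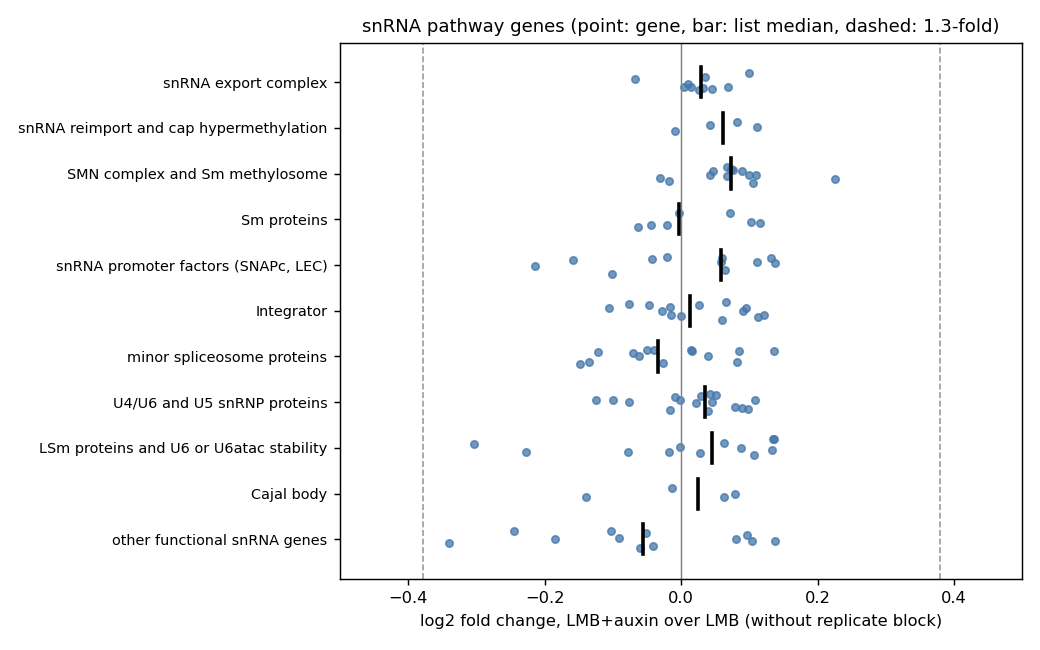
Log2 fold change of LMB+auxin over LMB (x axis) for the tested genes of 11 snRNA pathway lists (rows, a point for each gene, vertical jitter only for visibility), with black bars for list medians and dashed lines at a 1.3-fold change. List medians lie between -0.06 and 0.07, no point crosses a dashed line, and the leftmost points are RNVU1-18 and MEPCE.

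The pattern of PHAX across the 6 libraries was most like those of PSMA2 (Pearson r of log2 CPM 0.998), RN7SKP114 (0.997) and HMGB1 (0.996), and 1138 of 16973 other genes had r above 0.9. The summed snRNA level was most like those of EMP2 (0.999), KHDRBS1 (0.998) and HNRNPA1 (0.998), with 1058 of 16965 genes above 0.9. With 6 libraries that share replicate numbers, such values are common and are given as a description.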

How the data were processed

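RNA abundance was measured by RNA-seq of total RNA from 6 libraries of DLD-1 cells, 3 per group. Per the labels and the methods of the study, ribosomal RNA was removed, and the authors deposited unnormalized counts for each Ensembl gene. The submitters' processing notes name CASAVA 1.8.2, STAR 2.6.1c, featureCounts 1.5.2 and GRCh38, and the methods name other releases of STAR and featureCounts. The sources used here give no settings for strand, overlapping genes or multiply mapped reads. Symbols were found for 56948 of 58051 identifiers in GENCODE 44, which uses the same assembly.

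Genes with CPM above 1 in at least 3 libraries entered a robust quasi-likelihood fit with TMM scaling (edgeR 4.0.16, R 4.3.3) of LMB+auxin over LMB. A gene was called when its p, adjusted by Benjamini-Hochberg, was under 0.05 and its change at least 1.3-fold. The standard error is the log2 fold change over the square root of F. The fit without the block was also run on simulated counts that held no differences between replicate numbers. Its outcome is not reported here, and the fit with the block was not run on simulated counts. DESeq2 1.42.0, the tool of the study, limma-voom (limma 3.58.1), other scalings and filters, the replicate block and omission of each library were alternatives. Deviations from the group means correlated at 0.531, 0.691 and 0.273 between same-numbered libraries, against -0.573 to 0.146 between differently numbered ones. Of the latter, LMB 1 with LMB+auxin 3 (0.146) and LMB 3 with LMB+auxin 1 (0.142) also exceeded 0.1. Deviations cancel out within a group, so these correlations are not independent of each other. The study calls the replicates independent, so the numbers pair libraries by these correlations and not by a stated batch.

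The members and lists were chosen with earlier results of these data known. Named were all members, the listed gene with the smallest p in each list, XPO1, NCBP1, NCBP2, RAN and SNUPN, the 3 copies of highest count, and the 3 genes most correlated with PHAX or the snRNA sum. RNU2-2P and TUT1 fall outside this rule and were chosen after their values were seen. Sequences were read from the GRCh38 genome, and those of RNU5A-1 and RNU5B-1 are not reported here.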

Additional observations from a re-analysis of the deposited data

How the results depend on the processing

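No alternative changed a call for a member or a listed pathway gene: both counts were 0 in every setting that kept the 1.3-fold threshold. By the edgeR adjusted p alone, 0 of either passed without the block. With the block 1 member (RNU4-2) and 2 listed genes (MEPCE and TUT1) passed, beside 4.36% of all tested genes. RNU4-1 also passed with the block when replicate 1 was omitted from both groups (edgeR adjusted p 0.0366). Of 408 alternative fold changes of named genes 371 kept their direction and 37 turned, 26 of them among 153 for the members, and none of these genes was called. Each of the 9 members turned under at least 1 alternative, so their directions without the block are not settled by these libraries. Omitting a single library also leaves the replicate numbers unequal between the groups. With the block, RNU4-1, RNU4-2, RNU5A-1, RNU12 and RNU6ATAC kept their direction, also with a replicate number omitted from both groups. RNU5A-1 then came as near to no change as -0.00785. Over all genes, 1 was called, against 0 with library size alone, 39 without the filter, 11 with DESeq2, 201 with the replicate block and 0 to 5 when a library was omitted. With the replicate block and 1 replicate number omitted from both groups, chosen after seeing the data, the counts were 133, 158 and 134.

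When each library was omitted in turn, log2 fold changes that turned ran as RNU4-1 -0.0733 to 0.316, RNU4-2 -0.0629 to 0.454, RNU5A-1 -0.124 to 0.0721, RNU5B-1 -0.105 to 0.187, RNU11 -0.0401 to 0.0695, RNU12 -0.227 to 0.0185, RNU4ATAC -0.0185 to 0.0761, RNU6ATAC -0.0148 to 0.482, PHAX -0.0359 to 0.115, XPO1 -0.0735 to 0.094, NCBP2 -0.0322 to 0.0679 and RAN -0.00838 to 0.0799. Differences of ratios that turned ran as the log2 ratio of RNU6ATAC to RNU4ATAC -0.0589 to 0.593, the log2 ratio of RNU11 to RNU12 -0.0607 to 0.245 and the log2 ratio of RNU5A-1 to RNU5B-1 -0.114 to 0.0209.

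Without leaving out a library, estimates turned for RNU5B-1 with limma-voom (-0.00555) and the replicate block (-0.000115), for RNU11 with library size alone (-0.00812) and upper quartile scaling (-0.00525), and for NCBP2 with the same scalings (-0.00742 and -0.00478). With the replicate block and replicate 1 omitted from both groups, values were -0.0313 for RNU5B-1, -0.00388 for RNU4ATAC, -0.0128 for PHAX and -0.0513 for XPO1, and with replicate 3 omitted -0.0511 for RNU5B-1, -0.0156 for RNU11 and -0.0276 for NCBP2. The cause was not tested. Among the named genes the block changed the adjusted p result of RNU4-2, MEPCE and TUT1, as given with their values. RNU6ATAC, at 23 to 60 counts, is the member most limited by depth.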
